A study of Mus musculus with 6 samples.

Results

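The plasminogen activators *Plat* and *Plau*, the urokinase receptor *Plaur*, and the serpins *Serpine2*, *Serpinb2*, *Serpinb5* and *Serpinb8* were compared in corneal epithelial cells of mice with and without deletion of *Ptch1* in Prrx1-expressing cells. These 7 of the 17784 genes in the expression table were chosen by their symbols, with their read counts in the same 6 samples already known, so their differences between the groups are given as a description, without a test. Bulk RNA-seq of 3 control and 3 Ptch1Prrx1 samples asked how Hedgehog activation in keratocytes, the matrix-producing cells of the corneal stroma, relates to differentiation of the epithelium above them. Control mice carried *Ptch1* f/f, the floxed alleles of the Hedgehog receptor that restrains the pathway, and Ptch1Prrx1 mice carried *Prrx1-CreERT* in addition. Both groups received 3 doses of tamoxifen (TAM), with an age of 10 weeks and an interval of 2 months given in the labels. *Prrx1-CreERT* is active in keratocytes and other mesenchymal cells of the eye rather than in epithelium, so the cells sequenced were neighbours of the cells in which *Ptch1* was deleted. The epithelium was detached with EDTA, and mice of both sexes were used.

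Plasminogen activators are serine proteases that cut plasminogen into plasmin, which dissolves fibrin, degrades other matrix proteins and activates some growth factors and metalloproteinases. Tissue plasminogen activator cuts plasminogen mainly at fibrin, whereas urokinase is held at the cell surface by its receptor, a protein attached to the membrane by a lipid anchor. Serpins of clades E and B trap the activators in stable complexes, and in the cornea this balance is known chiefly from the healing of epithelial wounds.

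The library of Ptch1Prrx1 replicate 1 stood apart from the others. Its score on principal component 1 (58.1% of the variance) was 51.7, whereas its fellow replicates scored 18.3 and 19.1 and the control libraries -33.7 to -26.5. Values without that replicate are therefore given beside the results it moved most. The 6 libraries held 20296741 to 20625813 expected counts, so that 3 counts corresponded to 0.145 to 0.148 CPM (counts scaled to the library total), a limit that covers counting error only. *Ptch1* itself had a log2 fold change of -0.51 (SE 0.13, adjusted p = 0.0401, edgeR's quasi-likelihood test) in these epithelial samples, short of a 2-fold change. The corneal epithelial markers were high in all samples, with summed TPM (a level scaled for gene length and depth) of 100135 to 107962 in control and 90484 to 110647 in Ptch1Prrx1 samples over 8 of 8 markers. These sums do not show *Krt14*, the 1 marker of the 8 that was called higher, while 0 were called lower. *Krt14* rose from 534, 535 and 644 TPM in control replicates to 5798, 3254 and 2420 TPM in Ptch1Prrx1 replicates 1, 2 and 3 (log2 fold change 2.81, adjusted p = 0.00769, edgeR). The keratocyte and fibroblast markers *Kera*, *Ptgds* and *Thy1*, the leukocyte markers *Ptprc*, *Lyz2*, *Adgre1* and *Csf1r*, and the endothelial markers *Pecam1*, *Cdh5*, *Tek* and *Esam* had at most 10 counts in every sample. Other markers of these lists were present. *Cd68* had 507 to 798 normalized counts over the 6 samples, and control replicate 3 had 1238 of *Col1a2* and 342 of *Vim*, against at most 131 and 50.6 in the other samples. The stromal marker *Dcn* went the other way, with 4.97, 0.983 and 5.82 in control and 15.5, 9.24 and 22.9 in Ptch1Prrx1 samples. The leukocyte marker *Cd52* had 11.9, 17.7 and 10.7 in control and 54.8, 26.7 and 24.9 in Ptch1Prrx1 samples. In bulk RNA, fewer cells of a type and less RNA per cell cannot be told apart.

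Promoters of 5 of the 7 genes, those of *Plaur*, *Serpine2*, *Serpinb2*, *Serpinb5* and *Serpinb8*, were found in the RefSeq table for GRCm38.p6, and each spans 250 bases before to 50 bases after the start of transcription. The AP-1 motif, with the letters TGANTCA (both strands are read by this palindrome), is bound by Fos and Jun proteins. It was present in 4 of the 5 promoters and in 7.81% of all 32851 promoters of this length. The 4 promoters are shown because they share these letters, which are written in capitals. That of *Plaur* is chr7:24462233-24462532, that of *Serpinb2* chr1:107511173-107511472, that of *Serpinb5* chr1:106860925-106861224 and that of *Serpinb8* chr1:107589756-107590055, all on the plus strand.
Plaur: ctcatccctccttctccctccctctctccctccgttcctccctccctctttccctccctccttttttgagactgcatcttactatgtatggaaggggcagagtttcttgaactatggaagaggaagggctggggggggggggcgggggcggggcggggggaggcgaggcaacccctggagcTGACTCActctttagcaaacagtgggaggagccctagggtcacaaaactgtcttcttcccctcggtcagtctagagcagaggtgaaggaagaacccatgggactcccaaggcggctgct
Serpinb2: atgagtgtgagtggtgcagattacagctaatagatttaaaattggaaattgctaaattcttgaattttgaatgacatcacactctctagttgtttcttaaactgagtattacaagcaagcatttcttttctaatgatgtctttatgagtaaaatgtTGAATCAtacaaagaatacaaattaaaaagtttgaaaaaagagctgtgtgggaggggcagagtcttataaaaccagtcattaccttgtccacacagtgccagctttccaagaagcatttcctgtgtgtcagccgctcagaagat
Serpinb5: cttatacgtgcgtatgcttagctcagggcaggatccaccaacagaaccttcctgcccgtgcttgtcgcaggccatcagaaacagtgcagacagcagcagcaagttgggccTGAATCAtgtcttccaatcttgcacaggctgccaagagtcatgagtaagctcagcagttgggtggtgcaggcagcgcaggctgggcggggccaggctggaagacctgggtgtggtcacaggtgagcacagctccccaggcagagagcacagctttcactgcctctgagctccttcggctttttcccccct
Serpinb8: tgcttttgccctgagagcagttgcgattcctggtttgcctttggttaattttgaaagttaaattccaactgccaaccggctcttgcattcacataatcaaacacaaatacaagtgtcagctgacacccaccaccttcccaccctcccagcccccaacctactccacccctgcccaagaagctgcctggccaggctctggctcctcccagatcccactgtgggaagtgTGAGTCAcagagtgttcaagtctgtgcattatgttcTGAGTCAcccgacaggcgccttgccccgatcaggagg

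The AP-1 letters were TGACTCA in *Plaur*, TGAATCA in *Serpinb2* and *Serpinb5*, and TGAGTCA at both places in *Serpinb8*. Counted from the start of transcription, they began at position -69 in *Plaur*, -94 in *Serpinb2* and -140 in *Serpinb5*, and at -23 and 14 in *Serpinb8*. RefSeq gives *Serpinb2* another promoter window, chr1:107511260-107511559, whose start lies downstream of the one shown, and from which the same AP-1 letters begin at -181 and TATAAA at -116. The *Serpine2* promoter at chr1:79858616-79858915 on the minus strand held no such match and was the richest in G and C, at 77.7%. The *Serpinb2* promoter was the poorest, at 35.3%, and was the only one of the 5 with the TATA box letters TATAAA, which began at -29 from the first start and occur in 13.6% of all promoters. The letters GGGCGG of the GC box were found in *Plaur*, *Serpine2* and *Serpinb5* (35.7% of all promoters). The GLI core CCACCCA, read by the transcription factors of the Hedgehog pathway, was found in *Serpinb5*, on the minus strand at -82 (9.30% of all promoters). Neither the cyclic AMP response core TGACGT (7.51% of all promoters) nor the TEAD letters GGAATG (14.7%) occurred in any of these 5 windows. Such matches describe letters and are not evidence of binding.

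Expression of all 7 genes passed the filter on low counts. In the fit over all genes, 3 of the 7, *Plat*, *Plau* and *Serpinb2*, passed the thresholds for a higher level in Ptch1Prrx1 samples (adjusted p of at most 0.05 and at least 2-fold), and none passed for a lower level. Over the 12999 genes tested, 3.23% passed in either direction, 2.34% with a higher and 0.892% with a lower level. The 3 control and 3 Ptch1Prrx1 values did not overlap for 5 of the 7 genes, and for 39.9% of all genes tested. Because the genes were picked with these values known, their counts are not evidence about the group. All 7 log2 fold changes were above 0, with a median of 1.08, and the median over all genes tested was -0.01. The thresholds were passed by *Plat* alone without control replicate 2 or without control replicate 3, by *Plat* and *Plaur* without control replicate 1, and by *Plat* and *Serpinb2* without Ptch1Prrx1 replicate 1 or replicate 3. *Plat* alone also passed with limma-voom and with limma on log2(TPM + 1) without a filter, and *Plau* did not pass with limma on either filtered TPM scale.

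**Figure D1:**
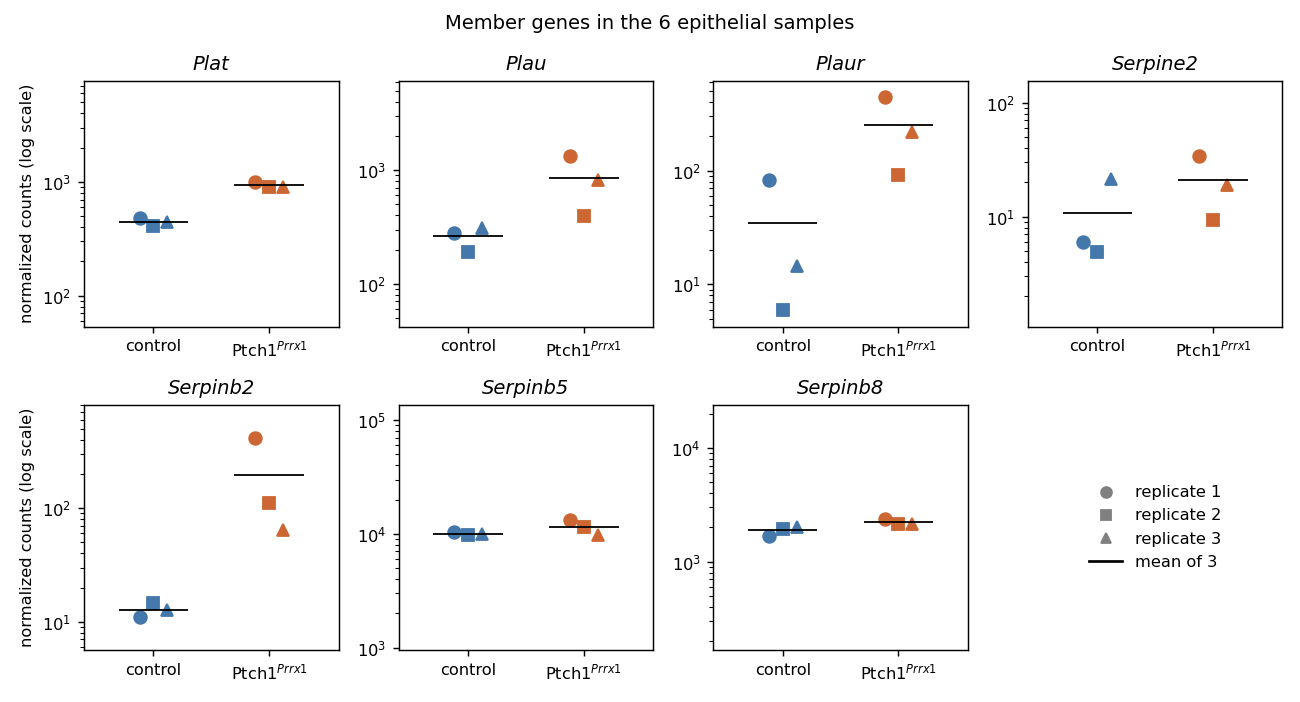
Normalized counts (log axis, each panel spanning the same number of decades) of the 7 genes in the 3 control and 3 Ptch1Prrx1 samples, with the symbol giving the replicate and the line the mean of 3. The groups overlap for *Serpine2* and *Serpinb5*, and Ptch1Prrx1 replicate 1 is the highest of its group for each of the 7 genes.

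*Plat* (gene 18791, chr8:22757727-22782844 in GENCODE M21 on GRCm38), which encodes tissue plasminogen activator, was the steadiest of the higher genes. It had 478, 410.0 and 443 normalized counts in control replicates 1, 2 and 3, and 1008, 898 and 904 in Ptch1Prrx1 replicates 1, 2 and 3. Every Ptch1Prrx1 sample lay above every control, and within the Ptch1Prrx1 group the highest value was 1.12 times the lowest. The means were 444 ± 34.0 (SD, n = 3) and 937 ± 61.6 (SD, n = 3), a ratio of 2.11, and the fitted log2 fold change was 1.08 (SE 0.09). Without Ptch1Prrx1 replicate 1 it was 1.03.

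*Plau* (gene 18792, chr14:20836660-20843385) encodes urokinase. Its normalized counts were 282, 192 and 313 in the control samples, and 1331, 393 and 810.4 in Ptch1Prrx1 replicates 1, 2 and 3. The groups did not overlap, but the lowest Ptch1Prrx1 sample, replicate 2, was closer to the highest control than to replicate 1 of its own group. The means were 262 ± 62.9 (SD, n = 3) and 845 ± 470.0 (SD, n = 3), a ratio of 3.22. The log2 fold change of 1.69 (SE 0.41) was 1.20 without Ptch1Prrx1 replicate 1.

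On the TPM scale, which allows levels of different genes to be compared, *Plat* exceeded *Plau* in control samples, at 18.7 ± 1.11 against 12.4 ± 3.10 (SD, n = 3 each), with no overlap of the sample ranges. In Ptch1Prrx1 samples the means were 38.5 ± 1.35 for *Plat* and 38.9 ± 20.5 for *Plau* (SD, n = 3 each), and the ranges overlapped. The share of *Plat* in the summed TPM of the pair was 60.5%, 65.5% and 55.5% in control replicates 1, 2 and 3, and 40.1%, 67.1% and 49.6% in Ptch1Prrx1 replicates 1, 2 and 3. The shares overlapped between the groups, since Ptch1Prrx1 replicate 2 had the highest share of the 6 samples.

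*Plaur* (gene 18793, chr7:24462484-24475968) encodes the urokinase receptor. It had 82.5, 5.90 and 14.6 normalized counts in control replicates 1, 2 and 3, and 442, 91.3 and 217 in Ptch1Prrx1 replicates 1, 2 and 3. Replicate 1 was the highest in both groups, and control replicate 1 came close to Ptch1Prrx1 replicate 2. The highest control value was 14.0 times the lowest, a wider spread than the 4.84 within the Ptch1Prrx1 group. With means of 34.3 ± 41.9 (SD, n = 3) and 250.2 ± 178 (SD, n = 3), the log2 fold change was 2.87 (SE 0.86). It was 4.59 without control replicate 1 and 2.17 without Ptch1Prrx1 replicate 1.

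*Serpinb2* (gene 18788, chr1:107511423-107535478) encodes plasminogen activator inhibitor 2, a clade B serpin that blocks urokinase and, less readily, tissue plasminogen activator. It was near the lower limit in control samples, with 10.9, 14.7 and 12.6 normalized counts, and reached 418, 111 and 63.7 in Ptch1Prrx1 replicates 1, 2 and 3. The 3 control values lay close together, and the Ptch1Prrx1 values differed up to 6.55-fold among themselves. The means of 12.8 ± 1.91 (SD, n = 3) and 197 ± 192 (SD, n = 3) gave the largest ratio of the 7 genes, 15.5, with a log2 fold change of 3.94 (SE 0.77) that was 2.76 without Ptch1Prrx1 replicate 1. In GENCODE M21 its 3′ part overlaps *Serpinb10*, so reads of the shared stretch could be assigned to either gene.

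*Serpine2* (gene 20720, chr1:79794197-79861180) encodes protease nexin 1, an inhibitor of thrombin, urokinase and plasmin. It was the lowest of the 7 genes, with 5.96, 4.92 and 21.4 normalized counts in the control samples and 34.1, 9.24 and 18.9 in Ptch1Prrx1 replicates 1, 2 and 3. The groups overlapped, with control replicate 3 above both Ptch1Prrx1 replicates 2 and 3. The means were 10.7 ± 9.20 and 20.8 ± 12.5 (SD, n = 3 each), and the log2 fold change was 0.94 (SE 0.66), or 0.39 without Ptch1Prrx1 replicate 1 and 1.90 without control replicate 3. Control replicate 3 was also the sample with the highest summed stromal markers, at 48.4 TPM over 7 of the 8 listed markers, against 3.12 to 7.14 TPM in the other 5 samples. The part of stromal RNA in the *Serpine2* values was not tested.

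*Serpinb5* and *Serpinb8* are epithelial clade B serpins that are not known chiefly as inhibitors of plasminogen activators: maspin, the product of *Serpinb5*, lacks inhibitory activity against most proteases, and the product of *Serpinb8* inhibits furin. *Serpinb5* (gene 20724, chr1:106861173-106883348) had 10363, 9668 and 10027 normalized counts in control samples and 13342, 11436 and 9833 in Ptch1Prrx1 replicates 1, 2 and 3. Ptch1Prrx1 replicate 3 lay inside the control range. The log2 fold change was 0.20 (SE 0.11), and 0.09 without Ptch1Prrx1 replicate 1.

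*Serpinb8* (gene 20725, chr1:107590006-107610484) had 1695, 1948 and 2027 normalized counts in control replicates 1, 2 and 3, and 2353, 2157 and 2133.5 in Ptch1Prrx1 replicates 1, 2 and 3. The groups did not overlap, though the difference was small, with a ratio of means of 1.17 and a log2 fold change of 0.23 (SE 0.08). It was 0.19 without Ptch1Prrx1 replicate 1 and 0.15 without control replicate 1.

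The 7 genes covered a wide range of TPM. In control samples the order of mean levels was *Serpinb5* (421 ± 10.8 TPM), *Serpinb8* (109 ± 9.22), *Plat* (18.7 ± 1.11), *Plau* (12.4 ± 3.10), *Plaur* (2.44 ± 2.93), *Serpinb2* (0.703 ± 0.120) and *Serpine2* (0.570 ± 0.503), all SD with n = 3. Neighbours in this order overlapped only at *Plaur* with *Serpinb2* and *Serpinb2* with *Serpine2*. In Ptch1Prrx1 samples *Serpinb5* (469.7 ± 49.7 TPM) and *Serpinb8* (127 ± 4.35) remained the highest and *Serpine2* (1.04 ± 0.580) the lowest, while *Plaur* stood at 17.4 ± 11.7 and *Serpinb2* at 10.3 ± 9.63 TPM (SD, n = 3). The overlapping neighbours were then *Plau* with *Plat*, and *Plaur* with *Serpinb2*.

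The summed TPM of the activators *Plat* and *Plau* can be set beside that of *Serpine2* and *Serpinb2*, the inhibitors among the 7 genes. The activators summed to 32.4, 26.7 and 34.5 TPM in control replicates 1, 2 and 3, and to 98.6, 55.1 and 78.5 TPM in Ptch1Prrx1 replicates 1, 2 and 3. *Serpine2* and *Serpinb2* together summed to 0.880, 1.08 and 1.86 TPM in control samples, and to 22.9, 6.40 and 4.56 TPM in Ptch1Prrx1 samples. Both sums were higher in every Ptch1Prrx1 sample than in any control.

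*Serpinb2* made up 65.9%, 75.9% and 38.2% of the TPM of this pair of serpins in control replicates 1, 2 and 3, and 92.9%, 92.7% and 77.6% in Ptch1Prrx1 replicates 1, 2 and 3. The pair does not hold every inhibitor of the activators, so no ratio of activators to inhibitors is given. These are transcripts, and protein activity was not measured in these files.

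**Figure D2:**
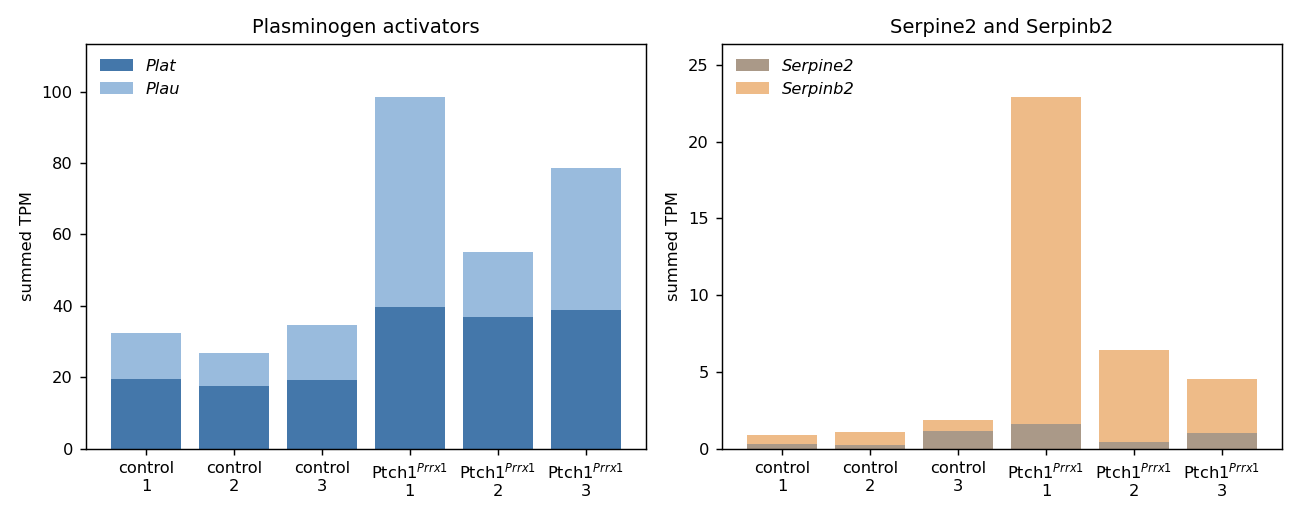
Summed TPM of the activators *Plat* and *Plau* (left) and of the serpins *Serpine2* and *Serpinb2* (right) in each of the 6 samples, stacked by gene, with axes starting at 0 and differing in scale. Activators range from 26.7 to 34.5 TPM in control and from 55.1 to 98.6 TPM in Ptch1Prrx1 samples, and *Serpinb2* makes up 92.9% of the right-hand sum in Ptch1Prrx1 replicate 1.

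The other genes of the system were taken from 6 lists of 63 genes chosen by function, of which 58 were in the table and 41 passed the filter. They covered plasminogen binding, other inhibitors, receptor partners, upstream proteases, plasmin substrates and the Ly6/uPAR (LU) domain family. In edgeR's quasi-likelihood test 5 of the 41 genes were upregulated and 1 was downregulated in Ptch1Prrx1 samples. Over all genes tested, 2.34% were called higher and 0.892% lower. The median log2 fold change was 0.16, with 22 of 41 above 0, against 6299 of all 12999 genes tested. As the lists were chosen with earlier results of these data known, their counts are a description. Only 1 of the 41, *Serping1*, was called when control replicate 2 was left out.

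Among the other inhibitors, 1 of the 2 tested genes was upregulated, against 2.34% of all genes tested. *Serping1* (gene 12258), which encodes the C1 inhibitor of complement and of plasma kallikrein, had 62.6, 51.1 and 86.4 normalized counts in control and 279, 296 and 273 in Ptch1Prrx1 samples. Its log2 fold change of 2.08 (SE 0.19, adjusted p = 0.00376, edgeR's quasi-likelihood test) passed the thresholds under all 16 alternatives. *Serpini1*, which encodes the brain inhibitor neuroserpin, had a log2 fold change of -0.73 (SE 0.45, adjusted p = 0.301, edgeR). *Serpinf2*, the gene of the plasmin inhibitor alpha 2-antiplasmin, had 3.88 to 13.4 normalized counts and was not tested.

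Genes whose products bind plasminogen at the cell surface did not pass the thresholds, with 0 of 4 called by edgeR, DESeq2 or limma-voom and 1 of 4 at an unadjusted p under 0.05 in edgeR. How many of all genes had such a p was not counted. *Plgrkt*, a transmembrane plasminogen receptor, had a log2 fold change of -0.13 (adjusted p = 0.342). *Anxa2* and *S100a10*, which together form a surface receptor for plasminogen and tissue plasminogen activator, had log2 fold changes of 0.16 (adjusted p = 0.322) and 0.30 (adjusted p = 0.203, all edgeR). Their levels were far above those of the activators, at 3663 TPM for *Anxa2* and 1674 TPM for *S100a10* in control samples and 3975 and 1989 TPM in Ptch1Prrx1 samples. Plasminogen itself, *Plg*, was not analysed here.

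Of the 10 tested partners and clearance receptors of the urokinase receptor, 1 was upregulated and 1 downregulated, against 2.34% and 0.892% of all genes tested. An unadjusted p under 0.05 (edgeR) was found for 8 of the 10, and the share of all genes with such a p was not counted. *Itga5*, the alpha chain of the fibronectin receptor, had 16.9, 7.87 and 34.0 normalized counts in control samples and 70.3, 52.3 and 77.7 in those of Ptch1Prrx1. The log2 fold change was 1.76 (SE 0.45, adjusted p = 0.0426, edgeR), and leaving out any sample but control replicate 3 gave an adjusted p from 0.0669 to 0.115, and without control replicate 3 the log2 fold change was 2.42. *Vldlr*, a receptor that takes up complexes of activators with their inhibitors, fell from 370, 429 and 345 to 127, 222 and 87.6 normalized counts. Its log2 fold change was -1.39 (SE 0.30, adjusted p = 0.0266, edgeR), and the call was lost without Ptch1Prrx1 replicate 1 and without each control in turn (adjusted p from 0.0556 to 0.105).

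Upstream of plasmin, 0 of 6 proteases and protease inhibitors were called by edgeR, DESeq2 or limma-voom, and 2 of 6 had an unadjusted p under 0.05 in edgeR. For all genes, the share with such a p was not counted. *St14*, which encodes matriptase, an epithelial protease able to activate pro-urokinase, had a log2 fold change of 0.31 (SE 0.06, adjusted p = 0.0210, edgeR), below the 2-fold minimum. Among 3 tested plasmin substrates, *Mmp13*, a collagenase made as an inactive precursor, was called higher. It had 5.96, 6.88 and 6.79 normalized counts in control and 237, 47.2 and 199 in Ptch1Prrx1 replicates 1, 2 and 3. The log2 fold change was 4.59 (SE 0.67, adjusted p = 0.0110, edgeR), with an adjusted p of 0.0672 without control replicate 2 and of 0.0545 with limma-voom.

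The LU domain is the fold of which the urokinase receptor is built. In this family 2 of the 16 tested genes were upregulated, against 2.34% of all genes tested. *Ly6d* had 23.9, 6.88 and 19.4 normalized counts in control samples and 870.2, 129 and 75.7 in Ptch1Prrx1 replicates 1, 2 and 3 (log2 fold change 4.41, SE 1.06, adjusted p = 0.0368, edgeR). *Ly6c1*, which has close paralogs that could share its reads, had a log2 fold change of 2.07 (SE 0.45, adjusted p = 0.0275, edgeR). Without Ptch1Prrx1 replicate 1 the log2 fold changes were 2.61 for *Ly6d* and 1.44 for *Ly6c1*. Both calls were lost without each control in turn and with limma-voom, with adjusted p from 0.0537 to 0.158 over these settings. *Lypd3*, a structural relative of the receptor found in stratified epithelia, had a log2 fold change of 0.07 (adjusted p = 0.658, edgeR).

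**Figure D3:**
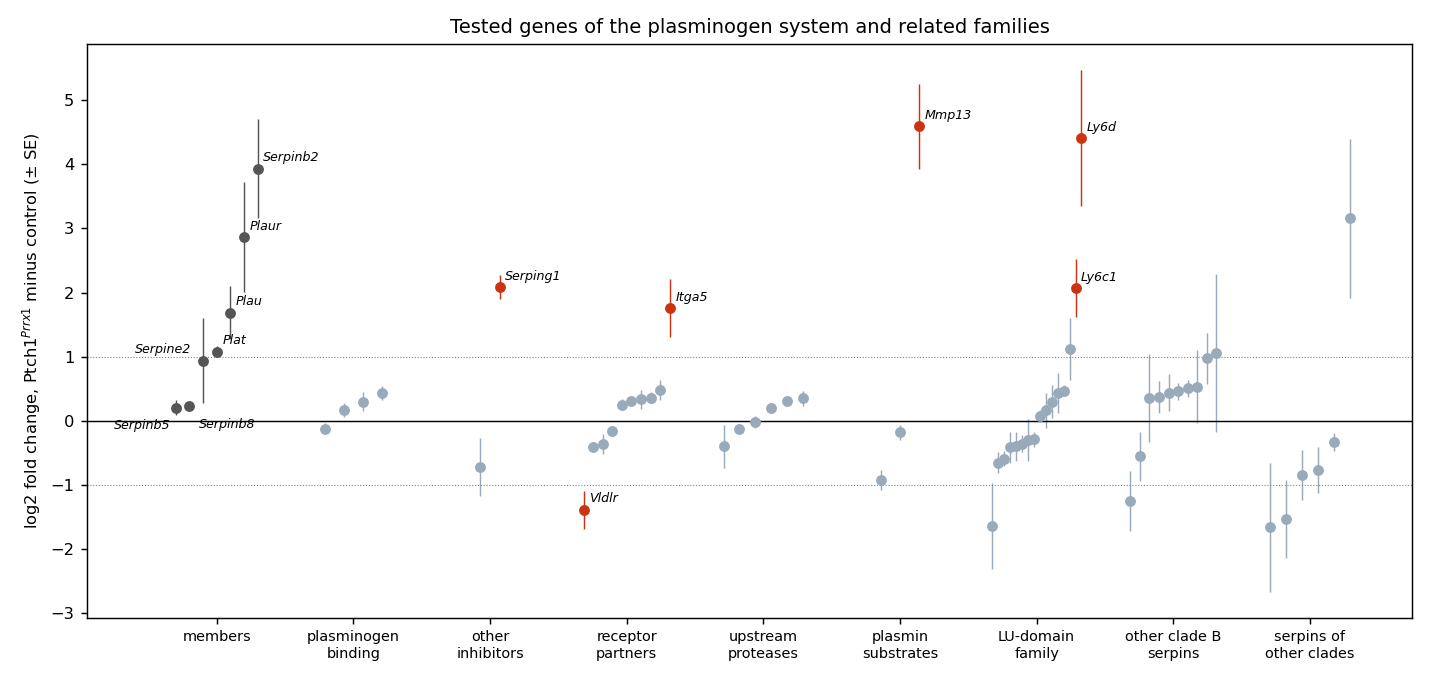
Log2 fold change (Ptch1Prrx1 minus control, ± SE of the fit) of each tested gene in the 7 described genes (grey, no test) and in the lists of related genes, where red points passed an adjusted p of at most 0.05 with at least 2-fold change and blue-grey points did not. Dotted lines mark a 2-fold change, and *Serping1* has the smallest error among the red points.

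*Serpinb5*, *Serpinb2* and *Serpinb8* lie in 1 cluster of clade B serpins on chromosome 1. In GENCODE M21 the stretch from the start of *Serpinb5* to the end of *Serpinb8* spans 749.3 kb and holds 20 annotated genes, 11 of them protein-coding. Of the 8 genes of this stretch that passed the filter, all clade B serpins, *Serpinb2* alone passed the thresholds, against 3.23% of all genes tested. *Serpinb5*, *Serpinb2* and *Serpinb8* were chosen with these values known, so this count is not evidence about the cluster. *Serpinb2* did not pass without each control in turn or with limma-voom. Its neighbour *Serpinb10*, with which it overlaps, had a log2 fold change of -0.56. *Serpinb7*, the nearest tested gene on the other side, had 0.97, with 16.9, 13.8 and 24.3 normalized counts in control samples and 55.8, 24.6 and 27.9 in Ptch1Prrx1 samples. The log2 fold changes of *Serpinb3a*, *Serpinb3c* and *Serpinb11* were 0.35, 1.05 and 0.51. *Serpinb3a* and *Serpinb3c* are near-identical copies that can share reads, so their values are uncertain.

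**Figure D4:**
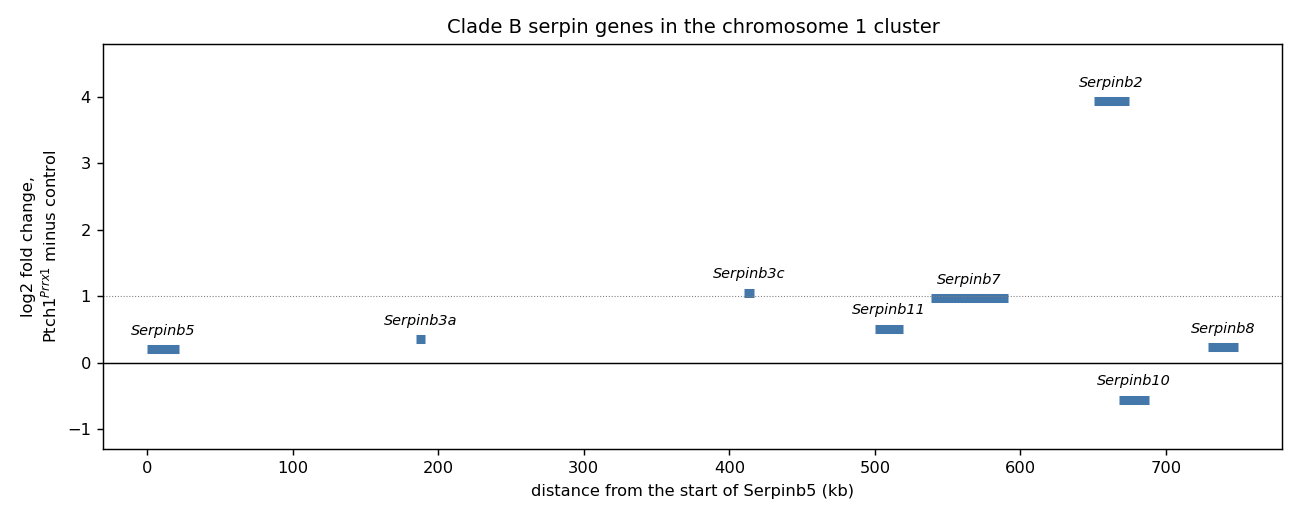
Log2 fold change (Ptch1Prrx1 minus control) of the 8 tested serpin genes between *Serpinb5* and *Serpinb8* on chromosome 1, each drawn as a bar from its start to its end against the distance in kilobases from the start of *Serpinb5*. *Serpinb2* lies at 3.94, and the other 7 lie between -0.56 and 1.05.

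Over all other clade B serpins, 0 of the 10 tested genes were called by edgeR, DESeq2 or limma-voom, and 4 of 10 had an unadjusted p under 0.05 in edgeR. For all genes, the share with such a p was not counted. The log2 fold change was above 0 for 8 of these 10 serpins and for 6299 of all 12999 genes tested. Its median was 0.45 for these serpins, against -0.01 over all genes tested. *Serpinb11*, an epithelial serpin of the cluster, came closest to a call by its adjusted p of 0.0464 (log2 fold change 0.51, SE 0.13, edgeR). Of 6 tested serpins of other clades, 0 were called by edgeR, DESeq2 or limma-voom, 3 had an unadjusted p under 0.05, and the median log2 fold change was -0.81. Leaving out 1 library added calls here. Without Ptch1Prrx1 replicate 2, *Serpina1e* (-2.60, adjusted p = 0.0469) and *Serpina3g* (4.54, adjusted p = 0.0288) passed, and without Ptch1Prrx1 replicate 3, *Serpina9* passed (-1.29, adjusted p = 0.0360, all edgeR). *Serpina3g* was not among the 6 tested genes, with 0, 1.97 and 1.94 normalized counts in control and 48.6, 2.05 and 17.9 in Ptch1Prrx1 samples. It passed the filter only once the low Ptch1Prrx1 replicate 2 was gone, through the group where it was high, so its p has no weight as a test. These serpins were named after their values were seen.

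For each of the 7 genes, the gene with the most similar profile was sought among 11411 tested genes by the root mean squared difference of centred log2 CPM over the 6 samples. *Plat* was nearest to *Has1*, a hyaluronan synthase gene, at 0.0824, and *Plau* to *Tnfaip3*, at 0.233. *Serpinb2* was nearest to *Crct1*, a gene of the epidermal differentiation complex, at 0.297, with another gene of that complex, *Lce3a*, next at 0.435. The nearest to *Serpine2* was *Stk39* (0.269), to *Serpinb5* *Cyb5b* (0.0139) and to *Serpinb8* *Gmip* (0.0255). *Plaur* lay farthest from its nearest gene, *Nipal1*, at 0.596. The distance is not scaled to the spread of each gene over the samples, so it does not rank the 7 genes by similarity of profile.

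*Plat*, *Plau*, *Plaur* and *Serpine2* followed the same order within the Ptch1Prrx1 group, with replicate 1 the highest, then replicate 3, then replicate 2. For *Plat*, replicates 3 and 2 were nearly equal, at 904 and 898 normalized counts. Of the listed conjunctival markers the keratin genes *Krt4*, *Krt13* and *Krt19* had the order of replicate 1, replicate 3, replicate 2 too, and the share of all genes with it was not counted. *Krt4* had 19037, 3428 and 10192 normalized counts and *Krt19* had 7350.1, 1964 and 4096 in Ptch1Prrx1 replicates 1, 2 and 3. Summed over 5 of the 6 listed conjunctival and goblet cell markers, TPM ranged from 1396 to 2322 in control samples and from 2182 to 4673 in Ptch1Prrx1 samples, and *Spdef*, a goblet cell factor, had at most 10 counts in every sample. *Krt8* of the same list went the other way, with 205, 257 and 211 normalized counts in control samples and 105, 135 and 115 in Ptch1Prrx1 replicates 1, 2 and 3 (log2 fold change -0.91, adjusted p = 0.0139, edgeR). The part of conjunctival cells in the values of these 4 genes was not tested.

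*Serpinb2*, *Serpinb5*, *Serpinb8* and *Ly6d* instead had the order replicate 1, replicate 2, replicate 3, though replicates 2 and 3 lay close together for *Serpinb8*. Ptch1Prrx1 replicate 1, the highest for all 7 genes, also had 1797 normalized counts of *S100a9*, which encodes an alarmin of neutrophils and stressed keratinocytes, against 7.18 and 30.9 in Ptch1Prrx1 replicates 2 and 3. Its summed immune markers were 530 TPM over 8 of 8 markers, of which *S100a9* held 373 TPM and *S100a8* 78.8 TPM. The sum was 49.8 to 54.2 TPM in control samples, and 57.1 and 65.95 TPM in Ptch1Prrx1 replicates 2 and 3. *Ptprc* and *Lyz2* had 10 counts or fewer. Early response genes, among them *Fos* and *Jun*, whose products bind AP-1 letters, had 7 of 10 members upregulated (edgeR), against 2.34% of all genes tested. This list was chosen with earlier results of these data known, so its count is a description and not a test. The summed TPM of these early response genes was 2789 to 3439 in Ptch1Prrx1 and 1097 to 1429 in control samples. The part of immune cells or of the early response in the values of the 7 genes was not tested.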

How the data were processed

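Bulk RNA-seq was made by the authors from corneal epithelial cells of 3 control and 3 Ptch1Prrx1 samples, which the study describes as biological replicates. The authors removed ribosomal RNA, sequenced DNA nanoballs, aligned reads with Bowtie2 (version 2.2.5) and quantified genes with RSEM (version 1.2.12). The submitters' processing notes name the build mm9, and the library kit in the labels differs from the paper's methods. The deposited expected counts are RSEM estimates that divide reads shared by several genes, so 39.4% of values above 0 were not whole. The deposited TPM values are scaled by the authors for gene length and depth within a sample, and the deposited FPKM values and the authors' group means were not used. The number of other sample columns was 0.

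Expected counts were rounded. Of 17784 genes, 17743 had a count and 12999 passed filterByExpr. They were fitted with edgeR 4.0.16 (quasi-likelihood test, TMM) in R 4.3.3, with Benjamini-Hochberg adjustment. A call needed an adjusted p of at most 0.05 and at least a 2-fold change. Normalized counts are counts on TMM-scaled library sizes times the mean scaled size, and the SE is the log2 fold change over the square root of F. An exact test of 3 against 3 samples cannot give a p below 0.10. The 7 genes and the lists were chosen with earlier results of these data known. Named were the 7 genes, 8 pathway genes whatever their values, called genes of each list (at most 6) and the nearest profile of each of the 7. Some items under this rule are not reported here.

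Alternatives were DESeq2 1.42.0, limma-voom (limma 3.58.1), limma on log2(TPM + 1) or log2(TPM + 0.1), RLE factors, other count filters, no minimum fold, a replicate block and each sample left out. Samples of a group differed by more than sampling noise (chi-square over its degrees of freedom 10.1 to 37.8 for pairs within groups). Replicate numbers did not pair the samples. The fit was tested on simulated data for the same contrast, where 12874 of 12999 genes were tested and 88.0% of 200 genes changed by 1.5 on the log2 scale were recovered, with 5.88% false calls. Simulated counts were drawn independently for each gene and sample, so no simulated library stood apart as Ptch1Prrx1 replicate 1 did. These rates do not cover that feature of the data.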

Additional observations from a re-analysis of the deposited data

How the results depend on the processing

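The 420 genes called, 304 higher and 116 lower, became 1822 (989 and 833) with no minimum fold change. They became 203 (145 and 58) on log2(TPM + 1), 254 (174 higher) on log2(TPM + 0.1) and 147 (105 and 42) on log2(TPM + 1) without a filter. Leaving out 1 sample gave 59 to 430 calls, 45 to 298 of them higher and 14 to 132 lower, with the fewest without control replicate 2. The 6 calls among pathway genes became 3 with at least 10 counts in every sample, where *Itga5*, *Mmp13* and *Ly6d* were not tested. They became 3 with limma-voom, 2 on log2(TPM + 1) without a filter, 15 with no minimum fold, and 1 to 6 with 1 sample left out. The 0 calls among other serpins became 1 with no minimum fold (*Serpinb11*) and 0 to 2 with 1 sample left out. *Lypd3* ranged from -0.025 (without control replicate 3) to 0.14 with 1 sample left out. The causes were not tested.

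With a replicate block, 390 genes were called (278 higher, 112 lower), 6 pathway genes and 0 other serpins, and *Plaur* passed as the 4th of the 7 described genes. Same-numbered samples had deviations correlated at 0.105, -0.0137 and 0.0189, so the numbers gave no pairing. Over the alternatives, the log2 fold change ranged from 1.00 to 1.13 for *Plat*, 1.20 to 2.03 for *Plau*, 2.17 to 4.59 for *Plaur*, 2.39 to 4.36 for *Serpinb2*, 0.38 to 1.90 for *Serpine2*, 0.09 to 0.31 for *Serpinb5* and 0.15 to 0.28 for *Serpinb8*, with no change of sign. A minimum of 10 counts in every sample kept 5 of the 7 genes, without *Plaur* and *Serpine2*, and a mean TPM of at least 1 kept 6, without *Serpine2*. Counts this low in control samples limit the precision of these folds, as does the number of 3 samples a group.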

Other observations

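Other genes of the lists passed the adjusted p without reaching a 2-fold change. *Fn1*, the gene of fibronectin, had 11643, 9201 and 9759 normalized counts in control samples and 4293, 6423 and 5368 in Ptch1Prrx1 samples (log2 fold change -0.93, adjusted p = 0.0148, edgeR). Among integrin genes, *Itgb1* (0.36, adjusted p = 0.0375) and *Itga3* (0.31, adjusted p = 0.0358) were higher and *Itgb5* (-0.41, adjusted p = 0.0171, all edgeR) was lower. In the LU domain family, *Psca* was higher (0.47, adjusted p = 0.0148), and *Lypd2* (-0.60, adjusted p = 0.0230) and *Ly6g6c* (-0.65, adjusted p = 0.0380, all edgeR) were lower. *Eno1*, which encodes enolase, a glycolytic enzyme that also binds plasminogen at the cell surface, had 0.43 (adjusted p = 0.0433, edgeR). These genes were named after their values were seen.

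*Serpina3n*, an acute phase serpin, varied more between samples of a group than between groups. It had 23.9, 502 and 45.6 normalized counts in control replicates 1, 2 and 3, and 3736, 219 and 1155 in Ptch1Prrx1 replicates 1, 2 and 3, with a log2 fold change of 3.16 (adjusted p = 0.122, edgeR). Control replicate 2 lay above Ptch1Prrx1 replicate 2.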
